A study of Mus musculus with 33 samples.

Results

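The levels of 10 antioxidant enzyme genes, out of 14862 gene rows in the count table, were followed in single mouse heart cells around birth. They were chosen by symbol and are the superoxide dismutases Sod1 and Sod2, catalase (Cat), the glutathione peroxidases Gpx1, Gpx3 and Gpx4, the peroxiredoxins Prdx1, Prdx3 and Prdx5, and the mitochondrial thioredoxin Txn2. Every one of the 10 symbols had a row, and every one passed the minimum of 10 counts over both groups in each comparison.

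The cells came from dissociated ventricles of transgenic mice carrying mAG-hGem, a green Azami Green-geminin fusion protein of the FUCCI reporter that accumulates in cells between S phase and mitosis. They were sorted at embryonic day 14.5 (E14.5) or postnatal day 5 (P5) into mAG-hGem positive and mAG-hGem negative cells. At E14.5 there were 10 positive and 11 negative cells, and at P5 there were 6 of each. All groups carry the transgene, and the strain, the number of animals and the animal behind each cell are not given in the labels. Each cell was accepted by the submitters after PCR for Tnnt2, the cardiac troponin T gene, and its mRNA was amplified as antisense RNA before sequencing.

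Because each library is 1 cell and no animal is named, each group was treated as 1 sample. No difference below has a test or a replicate check, and a level is the summed counts of a group per 1000000 summed counts (CPM). Intervals at 95% are exact and cover the counting of reads only. Antisense amplification copies each molecule many times, so these intervals are narrow beside the differences from cell to cell, and the values of single cells are given with them.

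Superoxide, a by-product of respiration, is turned into hydrogen peroxide by the superoxide dismutases, SOD1 mainly in the cytosol and SOD2 in the mitochondrial matrix. Peroxide is then removed by catalase in peroxisomes, by glutathione peroxidases, which use glutathione, and by peroxiredoxins, which are recharged by thioredoxin. Of the glutathione peroxidases, the members Gpx1, Gpx3 and Gpx4 carry selenocysteine. In the heart, birth brings a rise in oxygen and a move from glycolysis towards mitochondrial fatty acid oxidation, and oxidative DNA damage has been linked to the exit of cardiomyocytes from the cell cycle.

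Cell identity was read from marker genes, and the split by them was chosen after the data were seen. All 21 E14.5 cells and 5 of the 6 P5 positive cells held at least 10000 CPM of 11 summed cardiomyocyte markers (14775 CPM in the lowest of these 26 cells), and they are called cardiomyocyte-led here. The other 7 cells reached at most 3293 CPM. They are the P5 positive cell L2P12, with 4597 CPM of 6 endothelial markers and all 6 of them at 10 CPM or more, and all 6 P5 negative cells, which goes against their label as cardiomyocytes. In the P5 negative cells endothelial markers summed to 117.6 to 13065 CPM, red blood cell markers reached 228015 CPM in L1N3 and 63398 CPM in L2N10, and L2N12 held 19402 CPM of fibroblast and mural markers. Cardiomyocyte-led P5 cells summed to 23804 to 119275 CPM of the cardiomyocyte markers and E14.5 positive cells to 14775 to 43094 CPM. The table held 7 of 8 fibroblast and mural, 6 of 11 red blood cell and 4 of 8 macrophage markers, and macrophage markers reached at most 379 CPM, in an E14.5 negative cell. The part of these differences in marker level in the results was not tested. E14.5 negative cell N10 held 46245 CPM of fibroblast and mural markers beside 22322 CPM of cardiomyocyte markers. Any difference that involves the P5 negative cells is thus one of cell type as well as of age or reporter, and these cannot be told apart. Totals ran from 2.54 to 38.5 M counts per cell (1 M is 1000000), and the 2 cells most alike across genes (r = 0.867) still differed, so no library was present under 2 names.

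The stretches before the start sites are shown for Sod1 and Prdx1, the only members of the set whose 250 bases before an annotated start held the antioxidant response element core, TGACNNNGC on either strand, and for Gpx4, a member with a large difference between ages that lacked it. This element is bound by Nrf2, the main regulator of antioxidant genes. Capitals mark the element, which lies on the minus strand of both genes and therefore reads as its reverse complement. Sequences are from RefSeq (GRCm38.p6), 5′ to 3′ on the plus strand, cut where an annotated exon begins. The Sod1 stretch is chr16:90220512-90220753, that of Prdx1 is chr4:116685349-116685543 and that of Gpx4 is chr10:80053315-80053487.
Sod1: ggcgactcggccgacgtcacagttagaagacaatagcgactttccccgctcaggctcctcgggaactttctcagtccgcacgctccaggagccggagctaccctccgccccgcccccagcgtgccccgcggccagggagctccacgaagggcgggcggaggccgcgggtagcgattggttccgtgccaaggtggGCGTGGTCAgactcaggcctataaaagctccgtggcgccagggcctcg
Prdx1: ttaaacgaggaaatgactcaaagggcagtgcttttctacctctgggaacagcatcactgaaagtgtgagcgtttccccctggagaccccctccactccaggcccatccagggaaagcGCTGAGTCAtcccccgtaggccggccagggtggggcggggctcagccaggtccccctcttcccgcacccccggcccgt
Gpx4: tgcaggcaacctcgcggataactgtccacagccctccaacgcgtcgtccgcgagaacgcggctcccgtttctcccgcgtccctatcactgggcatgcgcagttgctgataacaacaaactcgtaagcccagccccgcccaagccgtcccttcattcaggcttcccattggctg

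The element began 56 bases before the Sod1 start and 133 bases before the Prdx1 start. Over all mouse genes in the RefSeq promoter table, 11.5% held the core in such a window. A GC box (GGGCGG, either strand) was found for 9 of the 10 genes, all but Gpx1, against 35.4% of genes, and a CCAAT box (CCAAT, either strand) for 6 of the 10, Sod1, Sod2, Cat, Gpx3, Gpx4 and Txn2, against 37.5%. A gene with several annotated starts was counted when any of its windows held the match. A match is a string of letters and not a measured site.

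Between E14.5 and P5 the positive cells differed most in Gpx1, Prdx5 and Gpx4. At P5, 4 of the 10 members were at least 2-fold higher in the summed counts (Sod1, Gpx1, Gpx4 and Prdx5) and 2 were at least 2-fold lower (Gpx3 and Prdx3). Over all rows with 10 counts or more, 30.3% were at least 2-fold higher and 40.9% at least 2-fold lower, so 4 of 10 is close to the background for higher genes. The members' median log2 ratio was 0.67, against -0.39 over all rows. In the cardiomyocyte-led cells 3 members were at least 2-fold higher (Gpx1, Gpx4 and Prdx5, background 24.5%) and 1 was lower (Gpx3, background 49%). The members' median log2 ratio there was 0.64, against -0.93 over all rows. Rows with a median coding transcript under 1000 bases, the class of 7 members, had medians of 0.40 in all cells and -0.08 in cardiomyocyte-led cells.

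**Figure D1:**
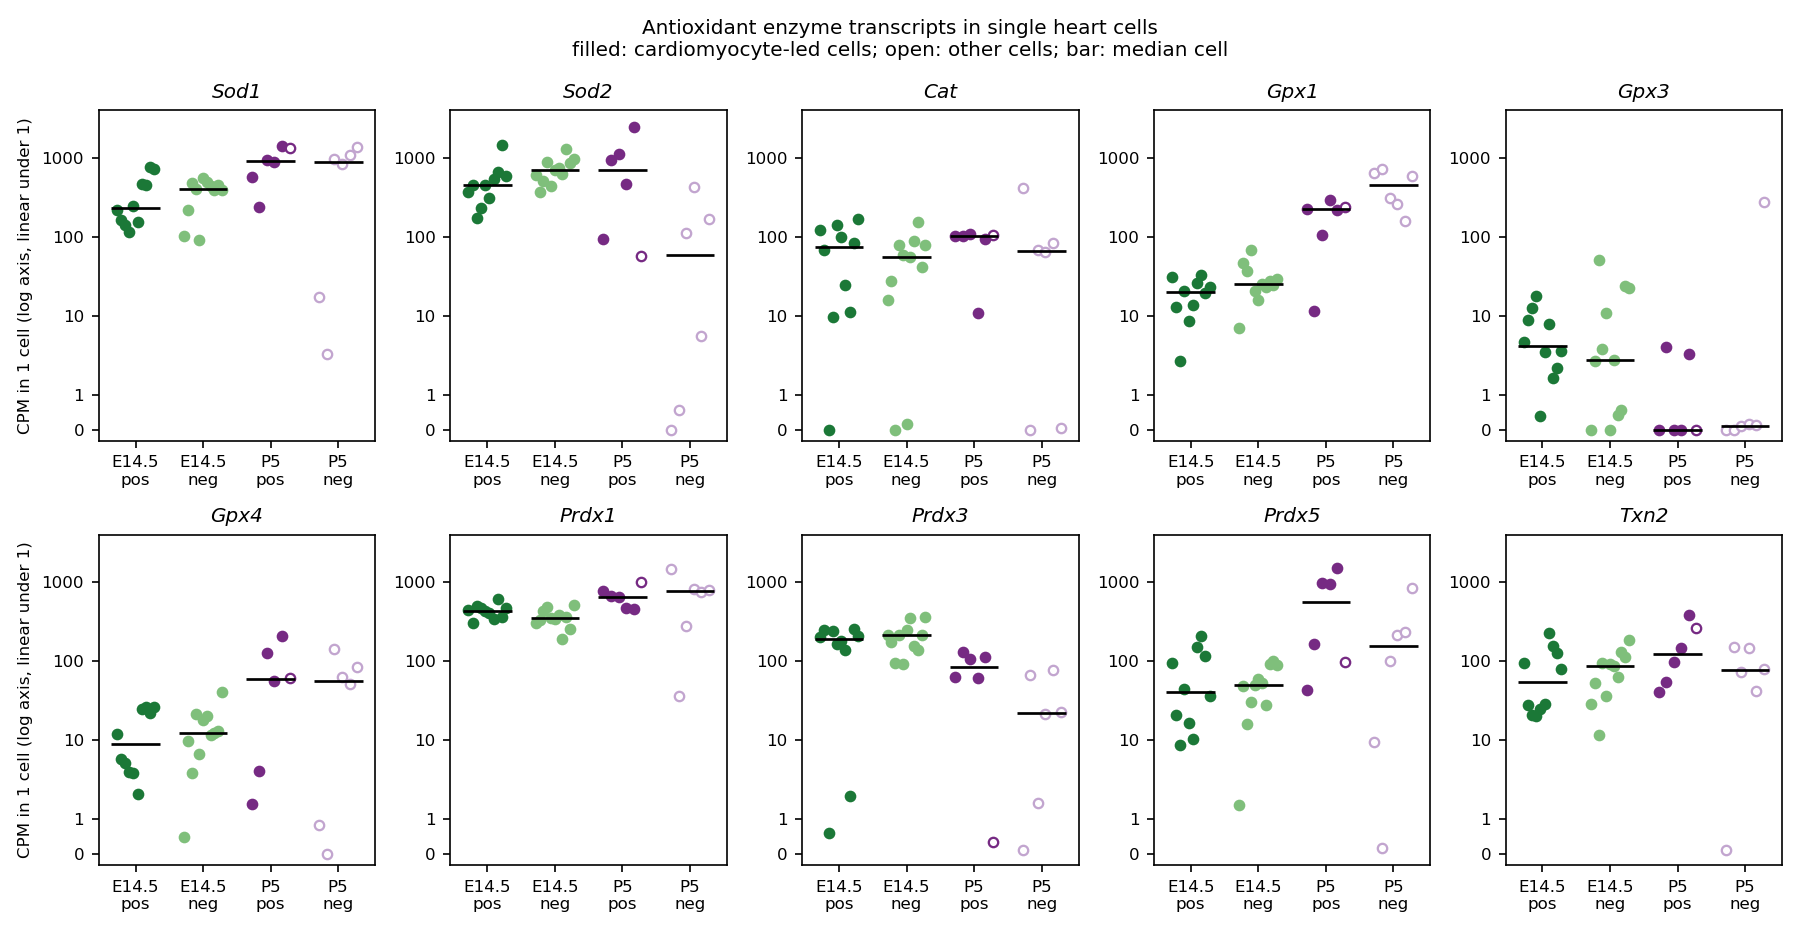
CPM of each member in each of the 33 cells by group, on a log axis that is linear under 1, with filled points for cardiomyocyte-led cells, open points for other cells and a bar at the median cell. Gpx1 stood above 158 CPM in all P5 negative cells and below 70 CPM in all E14.5 cells. The open points at P5 spread to 0 for Sod2, Cat, Gpx3 and Gpx4. They reached down to 0.14 CPM for Prdx3 and Txn2, 0.19 CPM for Prdx5 and 3.30 CPM for Sod1.

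Gpx1 encodes the cytosolic and mitochondrial glutathione peroxidase that reduces hydrogen peroxide (chr9:108338903-108340343, plus strand, GRCm38). It was at 228 CPM in L1P5, 11.6 in L2P3, 106 in L2P7, 294 in L2P8, 221 in L2P10 and 240 in L2P12, and the 10 E14.5 positive cells ran from 2.70 to 33.4 CPM with a median of 20.03. All P5 positive cells but L2P3 lay above every E14.5 cell, and L2P3 lay inside the E14.5 range. The summed level was 197 CPM (193.8 to 199.6) against 22.2 CPM (21.5 to 22.96), a log2 ratio of 3.15 (3.09 to 3.20), and 3.04 in cardiomyocyte-led cells. Leaving out any 1 cell kept it between 2.82 (without L2P8) and 3.40 (without G27).

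The same gene was also high in the P5 negative cells. Their values ran from 159 to 734 CPM with a median of 451, against 7.01 to 69.1 CPM with a median of 25.7 in E14.5 negative cells, and the ranges did not overlap. Across all ages and labels, 11 of 12 P5 cells exceeded the highest of the 21 E14.5 cells, N8 at 69.1 CPM. By median cell, the P5 negative group was highest, then P5 positive, then E14.5 negative, and E14.5 positive was lowest. Neighbours of the same age overlapped in range, and the ages were apart except for L2P3.

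Prdx5, a peroxiredoxin of mitochondria, peroxisomes and cytosol (chr19:6906697-6910106, minus strand), was at 43.6 CPM in L1P5, 165 in L2P3, 980 in L2P7, 955 in L2P8, 1516 in L2P10 and 99.1 in L2P12. E14.5 positive cells ran from 8.82 to 206 CPM with a median of 40.7, so 3 P5 positive cells lay above and 3 within the E14.5 range. The summed level was 670 against 99.8 CPM, a log2 ratio of 2.75 (2.72 to 2.77), and 3.10 in cardiomyocyte-led cells. G27 alone gave 50.3% of the E14.5 positive counts, and without it the log2 ratio was 3.35. Exons of Prdx5 overlap those of Trmt112 on the opposite strand, and whether the counting used strand is not given in the sources used here. Trmt112 was at 7.34 CPM in the positive cells of E14.5 and 1.71 CPM in those of P5, and in the negative cells at 9.61 CPM at E14.5 and 20.9 CPM at P5, so that it differed against Prdx5 in positive cells and with it in negative cells. The part of shared reads was not tested.

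Gpx4, which reduces lipid hydroperoxides in membranes (chr10:80047166-80056439, plus strand), was at 1.57 CPM in L1P5, 4.07 in L2P3, 129 in L2P7, 55.7 in L2P8, 211 in L2P10 and 62.3 in L2P12. E14.5 positive cells ran from 2.08 to 26.6 CPM with a median of 8.95. Of the P5 positive cells, 4 were above all E14.5 positive cells, while L1P5 was below all of them and L2P3 within their range. The summed levels were 78.3 and 17.8 CPM, a log2 ratio of 2.14 (2.07 to 2.20), and 2.23 in cardiomyocyte-led cells. Leaving out L2P10 gave 1.69. The annotation holds a pseudogene copy, Gpx4-ps2, with which Gpx4 could share reads.

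Sod1 (chr16:90220754-90226329, plus strand) was at 569 CPM in L1P5, 236 in L2P3, 939 in L2P7, 883 in L2P8, 1411 in L2P10 and 1327 in L2P12. E14.5 positive cells ran from 117 to 774 CPM with a median of 234, so 4 P5 positive cells exceeded all of them. The log2 ratio was 1.13 (1.12 to 1.15), and 0.94, under 2-fold, without the endothelial-marked L2P12. The mitochondrial Sod2 was far more uneven at P5, at 95.1 CPM in L1P5, 934 in L2P3, 1114 in L2P7, 463 in L2P8, 2449 in L2P10 and 56.8 in L2P12. E14.5 positive cells ran from 172 to 1455 CPM. The log2 ratio of Sod2 was 0.31 (0.30 to 0.32), and -0.27 without L2P10.

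The remaining members of the mitochondrial peroxide system did not move together. Prdx3, the peroxiredoxin of the matrix, was lower at P5, at 71.4 against 144 CPM, a log2 ratio of -1.01 (-1.05 to -0.97). It was 61.1 to 132 CPM in the 5 cardiomyocyte-led P5 cells and 0.36 CPM in L2P12, and the ratio was -0.61 without that cell and -1.41 without G27, where Prdx3 was at 1.98 CPM. It passed 2-fold in 7 of the 16 recalculations that left out 1 cell. E14.5 positive cells G5 (0.62 CPM) and G27 stood near 0, while the other 8 ran from 140 to 256 CPM. Txn2, which recharges Prdx3, ran from 41.3 to 388 CPM at P5 and from 20.4 to 231 CPM at E14.5 with overlapping ranges and a log2 ratio of 0.81 (0.78 to 0.84). Without G27 it was 1.06, which passes 2-fold.

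Prdx1, the main cytosolic peroxiredoxin, was the most even member in positive cells. Every P5 positive cell lay between 464 and 1001 CPM and every E14.5 positive cell between 305 and 617 CPM. In P5 negative cells it was uneven, from 35.9 CPM in L2N4 to 1479 CPM in L1N3. The log2 ratio of Prdx1 between the ages in positive cells was 0.52 (0.51 to 0.54), and 0.26 in cardiomyocyte-led cells. Catalase was at 93.1 to 109 CPM in 5 of the 6 P5 positive cells and at 10.99 CPM in L2P8. At E14.5 it ran from 0 (G5, where 3 counts would be 0.311 CPM) to 169 CPM in positive cells, and the log2 ratio was 0.17 (0.12 to 0.21), or -0.03 in cardiomyocyte-led cells. Gpx3, the secreted glutathione peroxidase, was low in both groups. It had no count in 4 of the 6 P5 positive cells and 4.004 and 3.34 CPM in L2P3 and L2P10, against 0.39 to 17.8 CPM at E14.5, a log2 ratio of -2.09 (-2.40 to -1.79). Without L2P3 the ratio, with 0.5 count added, was -3.11.

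**Figure D2:**
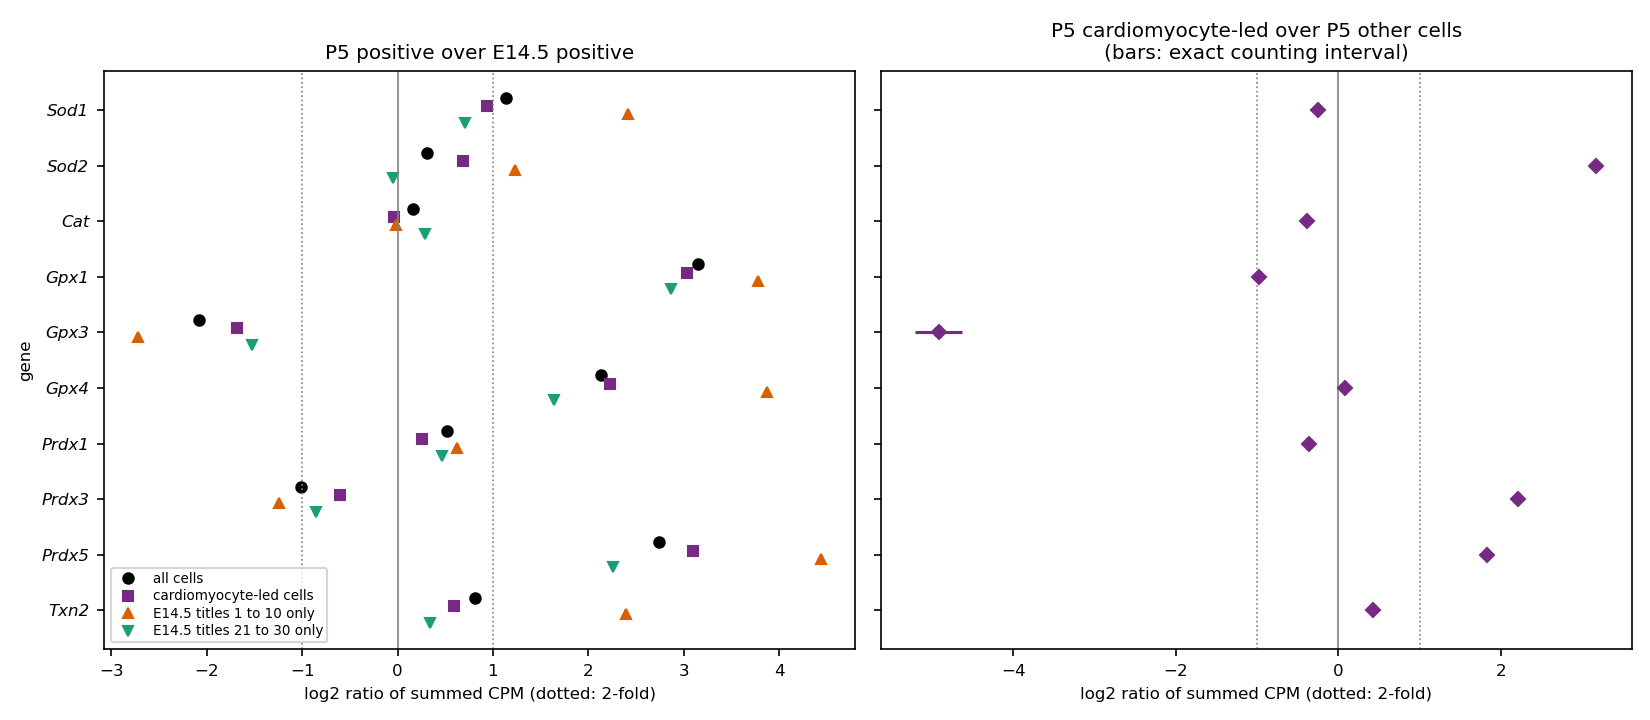
Log2 ratios of summed CPM for each member, at left for P5 positive over E14.5 positive with all cells, with cardiomyocyte-led cells, and with the E14.5 cells of title numbers 1 to 10 or 21 to 30 alone, at right for P5 cardiomyocyte-led over other P5 cells with exact counting intervals. At left, Gpx1, Gpx4 and Prdx5 were more than 2-fold higher and Gpx3 more than 2-fold lower in all 4 settings. At right, Sod2, Prdx3 and Prdx5 were more than 2-fold higher and Gpx3 more than 2-fold lower.

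The E14.5 cells fall into title numbers 1 to 10 (11 cells, median total 9.63 M counts) and 21 to 30 (10 cells, 22.9 M), and the labels do not say what the numbers stand for. Several members differed between these ranges within the same age. Within classes of transcript length, 20.9% to 23.6% of all rows were at least 2-fold higher in numbers 21 to 30, and 16.8% to 32% at least 2-fold lower. In the cells numbered 21 to 30, Prdx5 was higher by a log2 ratio of 1.61, Txn2 by 1.59, Gpx4 by 1.51, Sod1 by 1.28 and Sod2 by 0.93, whereas Gpx1 (0.01), Prdx1 (-0.05) and Cat (0.16) differed little. Sod1 ran from 92.4 to 477 CPM with a median of 165 in the lower numbers and from 395 to 774 CPM with a median of 460 in the higher. Gpx4 ran from 0.50 to 21.4 CPM and from 11.6 to 40.9 CPM, in the same order.

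The age ratios depended on which of the E14.5 cells were used. Against numbers 21 to 30 alone, the log2 ratio between the ages in positive cells was 2.87 for Gpx1, 2.26 for Prdx5, 1.64 for Gpx4, 0.70 for Sod1, 0.34 for Txn2 and -0.04 for Sod2. Against numbers 1 to 10 alone it was 3.78, 4.44, 3.88, 2.42, 2.39 and 1.23, in the same order of genes. Within cardiomyocyte-led cells and numbers 21 to 30, it was 2.77 for Gpx1, 2.61 for Prdx5, 1.73 for Gpx4 and 0.51 for Sod1. The 2-fold difference of Sod1 therefore did not hold against the E14.5 cells numbered 21 to 30, while those of Gpx1, Prdx5 and Gpx4 did, and so did that of Gpx3 in the lower direction (-1.52, and -1.12 within cardiomyocyte-led cells).

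Short transcripts stood higher at P5 as a class. Among rows whose gene has a median coding transcript under 1000 bases, the median log2 ratio between the ages in positive cells (P5 over E14.5) was 0.40 and 39.5% of rows were at least 2-fold higher. From 1000 to under 2000 bases the median was -0.15, from 2000 to under 4000 bases it was -0.56, and from 4000 bases it was -1.002 with 23.5% of rows at least 2-fold higher. The shortest class held 7 members (Sod1, Gpx1, Gpx3, Gpx4, Prdx1, Prdx5 and Txn2), the next held Cat and Prdx3, and the third held Sod2. In cardiomyocyte-led cells the medians were -0.08, -0.58, -1.17 and -1.65 in that order of length. Between the title ranges of the E14.5 cells, numbers 21 to 30 over 1 to 10, they were 0.28, 0.09, -0.07 and -0.17. The part of transcript length in the members' ratios was not tested. A length was found for 87.3% of the rows.

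**Figure D3:**
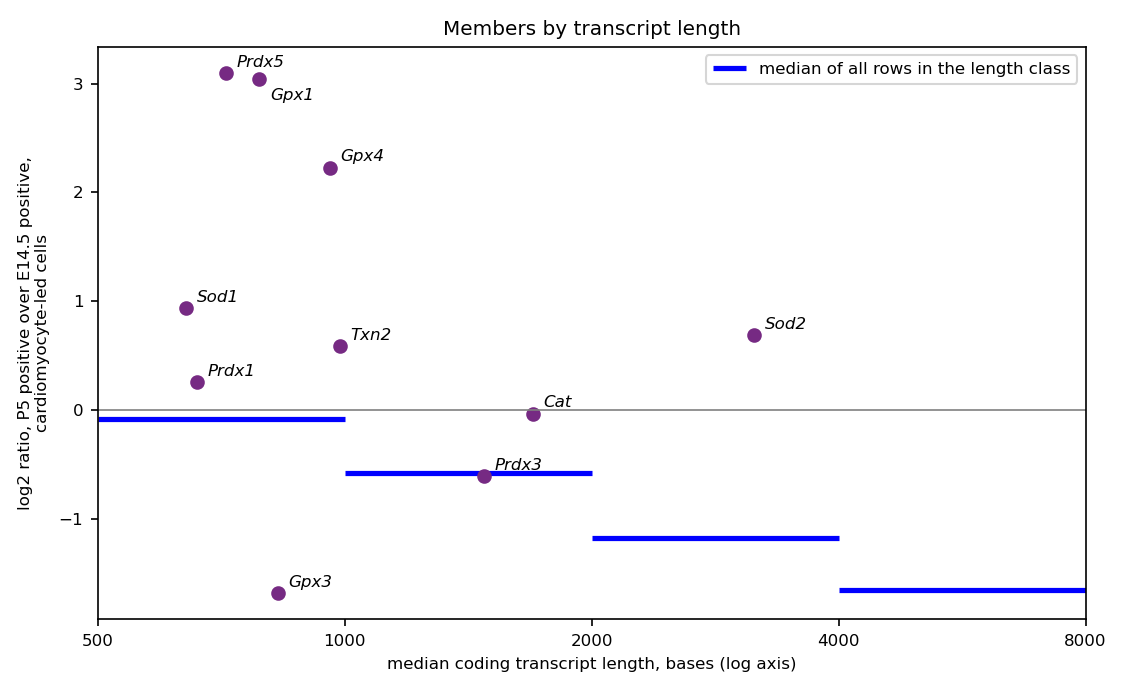
Log2 ratio of each member, P5 positive over E14.5 positive in cardiomyocyte-led cells, against the median length of its coding transcripts on a log axis, with bars at the median of all rows in each length class. Gpx1, Prdx5 and Gpx4 lay more than 2 above the bar of the class under 1000 bases (-0.08), and Gpx3 lay below it.

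By the reporter, most members of the E14.5 cells were within 2-fold in the summed counts. No member was at least 2-fold higher in positive than in negative cells (background 22.4%) and 1, Gpx3, was at least 2-fold lower (background 29%). Prdx5 (log2 ratio 0.70, 0.66 to 0.73) and Prdx1 (0.42, 0.40 to 0.43) were the highest, and Prdx3 (-0.58, -0.60 to -0.56) and Gpx3 (-1.11, -1.23 to -0.99) the lowest. The Prdx5 ratio was 0.09 without G27 and -0.27 by the median cell. Prdx3 in E14.5 negative cells ran from 93.3 to 359 CPM, with no cell near 0, and without G27 its ratio was -0.18. Gpx3 was uneven among negative cells, from 0 in N3 and N21 to 51.2 CPM in N7, and the ratio was -0.63 without N28 and past 2-fold in 15 of the 21 recalculations that left out 1 cell. The ranges of the positive and negative cells overlapped for all 10 members. Within the title ranges the directions differed. In numbers 1 to 10 Gpx1 was at -1.39, past 2-fold, Gpx4 at -0.84, Sod1 at -0.45, Prdx5 at -0.19 and Prdx3 at 0.18. In numbers 21 to 30 they were at 0.10, 0.48, 0.37, 0.96 and -0.91, in the same order.

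At P5 the reporter split went with cell type. Sod2 was at 791 against 130 CPM, positive cells first (log2 ratio 2.60, 2.57 to 2.63), Prdx3 at 71.4 against 25.7 CPM (1.47, 1.40 to 1.54), Prdx5 at 670 against 278 CPM (1.27, 1.25 to 1.29) and Txn2 at 184 against 77.97 CPM (1.24, 1.20 to 1.28). These were the 4 members at least 2-fold higher in positive cells (background 34.2%), and Gpx3 was the 1 at least 2-fold lower (background 39.4%). Gpx1, at 197 against 390 CPM (-0.99), was just inside 2-fold and past it in 6 of the 12 recalculations that left out 1 cell. Of the Gpx3 counts of negative cells, 99.9% came from L2N12, at 279 CPM, and the other 5 cells held at most 0.18 CPM. Without that cell Gpx3 was higher in positive cells, by a log2 ratio of 3.31 with 0.5 count added. Leaving out L2N7 gave 0.90 for Prdx3 and 0.86 for Prdx5, both under 2-fold, and leaving out L2P10 gave 0.96 for Txn2, which was at 0.66 by the median cell. Prdx5 was also just under 2-fold without L2P8 or without L2P10, and past it in the other 9 of 12 recalculations. In the other direction, Prdx5 was at 2.35 without L2N12, Prdx3 at 2.27 without L2N10 and Sod2 at 3.21 without L2N9.

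Split by markers, the contrast was wider than by the reporter for Sod2, Prdx3 and Prdx5. It was narrower for Txn2, at 158 against 118 CPM (log2 ratio 0.42, 0.38 to 0.46), within 2-fold. The marker split at P5 differs from the reporter split by 1 cell only, the reporter positive L2P12, which joins the other cells. L2P12 held 56.8 CPM of Sod2, 0.36 CPM of Prdx3, 99.1 CPM of Prdx5 and 266 CPM of Txn2. In the 5 cardiomyocyte-led P5 cells against the 7 others, Sod2 was at 1028 and 115 CPM (log2 ratio 3.17, 3.14 to 3.19), Prdx3 at 94.4 and 20.3 CPM (2.22, 2.15 to 2.29) and Prdx5 at 854 and 240 CPM (1.83, 1.81 to 1.86). Sod2 ran from 95.1 to 2449 CPM in the former and from 0 in L1N3 to 424 CPM in L2N9 in the latter. In Sod2, 6 of the 7 other cells lay below every E14.5 cell. Prdx3 ran from 61.1 to 132 CPM and from 0.14 to 77.4 CPM, in the same order of cells. Prdx5 ran from 43.6 to 1516 CPM and from 0.19 to 851 CPM. In each of Prdx3 and Prdx5, 3 of the 5 cardiomyocyte-led cells lay above all 7 others. Ratios with a cell left out were not calculated for this split. Sod2, Prdx3 and Prdx5 were the members at least 2-fold higher in cardiomyocyte-led cells (background 27.7%). Gpx3 (-4.92, from L2N12) was the 1 at least 2-fold lower (background 48.9%). Gpx1 pointed the other way, at 183 and 358 CPM (-0.97, -0.9996 to -0.94). Sod1 (-0.26), Gpx4 (0.09) and Prdx1 (-0.36) were closer. Among the other cells, L1N3 and L2N4 had 17.4 and 3.30 CPM of Sod1 and 0.85 and 0 CPM of Gpx4. L1N3 was the cell with 228015 CPM of red blood cell markers, and L2N4 had the fewest detected genes of all cells, 2994. The marker split was chosen after these values were known.

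Between the ages in negative cells, 5 members were at least 2-fold higher at P5 (Sod1, Gpx1, Gpx3, Gpx4 and Prdx5; background 33.6%) and 2 at least 2-fold lower (Sod2 and Prdx3; background 41.7%). Gpx1 was at 390 against 28.6 CPM (log2 ratio 3.77, 3.73 to 3.81). Gpx4 was at 83.2 against 15.6 CPM (2.42, 2.36 to 2.48), with 4 of 6 P5 cells above the E14.5 range of 0.50 to 40.9 CPM and 1 below it. Sod1 was at 908 against 394 CPM (1.20), with 4 P5 cells above all E14.5 negative cells and 2 below all of them. Prdx5 was at 278 against 61.5 CPM (2.17), with 4 P5 cells above all E14.5 negative cells and 1 below all of them. Sod2 was at 130 against 776 CPM (-2.57, -2.60 to -2.55) and Prdx3 at 25.7 against 215 CPM (-3.06, -3.13 to -3.00). All 6 P5 negative cells lay below all 11 E14.5 negative cells in Prdx3, whose ratio ran from -3.86 without L2N10 to -2.49 without L2N7. Leaving out 1 cell gave -3.19 for Sod2 (L2N9), 1.75 for Gpx4 (L2N7) and 1.096 for Prdx5 (L2N12). The higher level of Gpx3 at P5 rested on L2N12, without which its ratio was -6.50. Since the P5 negative cells lack cardiomyocyte markers and the E14.5 negative cells have them, cell type and age cannot be told apart in these values.

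Related genes were read from lists in the positive cells, P5 over E14.5, where the shares of all rows past 2-fold were 30.3% higher and 40.9% lower (24.5% and 49% in cardiomyocyte-led cells). Of 12 measured superoxide and peroxide enzymes outside the 10 members, 4 were at least 2-fold higher and 1 lower, with a median log2 ratio of 0.06. Prdx2, the other main cytosolic peroxiredoxin, was at 731 against 139 CPM (2.39, 2.37 to 2.41), and 5 of 6 P5 cells exceeded all E14.5 positive cells. Glrx5, a mitochondrial glutaredoxin for iron-sulfur clusters, was at 55.6 against 248 CPM (-2.16, -2.20 to -2.12), and all 6 P5 cells lay below all E14.5 positive cells. Mgst3 (1.68) and Gpx8 (1.07) were also past 2-fold, but without L2P8 they were at 0.80 and 0.53. Gpx8 was also under 2-fold without any 1 of L2P12, G5, G8 and G27. Glrx2 (-0.97) and cytosolic Txn1 (-0.49) were lower by less than 2-fold, and Glrx2 was at -1.50 without L2P12 and -0.29 without G27.

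Of 22 genes of glutathione and thioredoxin upkeep, 8 were at least 2-fold higher and 5 lower (median 0.03). Msrb1, a methionine sulfoxide reductase, was at 42.0 against 3.03 CPM (3.79) and Ggct at 24.1 against 2.32 CPM (3.38, with 81.5% of its P5 counts from L2P8, and 1.44 without that cell). Srxn1, which repairs over-oxidised peroxiredoxins, was at 26.5 against 0.063 CPM, but 81.4% of its P5 counts came from L2P12 (log2 ratio 8.64 with 0.5 count added, and 6.62 without that cell). Idh1, a cytosolic source of NADPH, was at 11.2 against 80.9 CPM (-2.85), and Me1 (-0.96) and Slc3a2 (-0.85) were lower by less than 2-fold. Me1 was past 2-fold in 8 of the 16 recalculations that left out 1 cell (-1.64 without L2P8), and Slc3a2 in 1 (-1.58 without L2P3). At the other end Me1 was at -0.56 without L2P12 and Slc3a2 at -0.46 without L2P8.

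Of 22 measured genes of the Nrf2 system and stress response, 10 were at least 2-fold higher and 5 lower (median 0.81). Sirt3, the mitochondrial deacetylase known to act on SOD2, was at 85.2 against 4.51 CPM (4.24, 4.13 to 4.35), above all E14.5 positive cells in 5 of 6 P5 cells. L2P8 gave 67.2% of those counts, and the ratio was 3.13 without it. Gsta4 (2.81, and 2.02 without L2P8) and the ferritin light chain Ftl1 (1.94) were higher, Sqstm1 was at 0.80, and the regulator itself, Nfe2l2, was at 38.95 against 64.1 CPM (-0.72). Mafg was at -0.99, with 99.4% of its P5 counts in L2P12, and at -7.86 with 0.5 count added without that cell.

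Of 8 measured oxidant sources 4 were at least 2-fold higher and 3 lower (median 0.75), with Cyba, a subunit of NADPH oxidases, at 30.3 against 11.2 CPM (1.44) and Romo1 at 0.17. Without L2P10 Cyba was at 0.67, and without G27 at 2.53. Of 9 genes for selenoprotein synthesis, on which Gpx1, Gpx3 and Gpx4 depend, none was at least 2-fold higher and 2 were lower (median 0.23). In cardiomyocyte-led cells 1 was higher and 4 were lower, with a median of the opposite sign (-0.60). There, 8 upkeep genes were higher and 4 lower (median -0.07), 11 and 7 in the Nrf2 list (0.91), 4 and 3 among the oxidant sources (0.80), and 3 and 3 among the other enzymes. Sephs2 was at 16.8 against 39.5 CPM (-1.23), while Sephs1 (0.84), Pstk (0.63), Trnau1ap (0.56) and Sepp1 (0.04) were within 2-fold. With 1 cell left out, Sephs1 was past 2-fold in 4 of 16 recalculations, and Pstk and Trnau1ap in 1 each. Without L2P12, Sepp1 was at -1.60. Of 20 mitochondrial reference genes 3 were at least 2-fold higher and 2 lower (median 0.07), and in cardiomyocyte-led cells 7 were higher and 0 lower (0.37). In all cells the genes named by the rule for each list were Ogdh (1.797), Cs (1.54) and Timm44 (1.54) at the upper end and Vdac1 (-0.78), Dlst (-0.99) and Idh3a (-1.0006) at the lower. Polg, the mitochondrial DNA polymerase (-1.12), falls outside that rule and was chosen after its values were seen. Leaving out 1 cell took Cs to 0.87 (L2P8), Timm44 to 0.60 (L2P3) and Idh3a to -0.60 (L2P12), all under 2-fold.

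**Figure D4:**
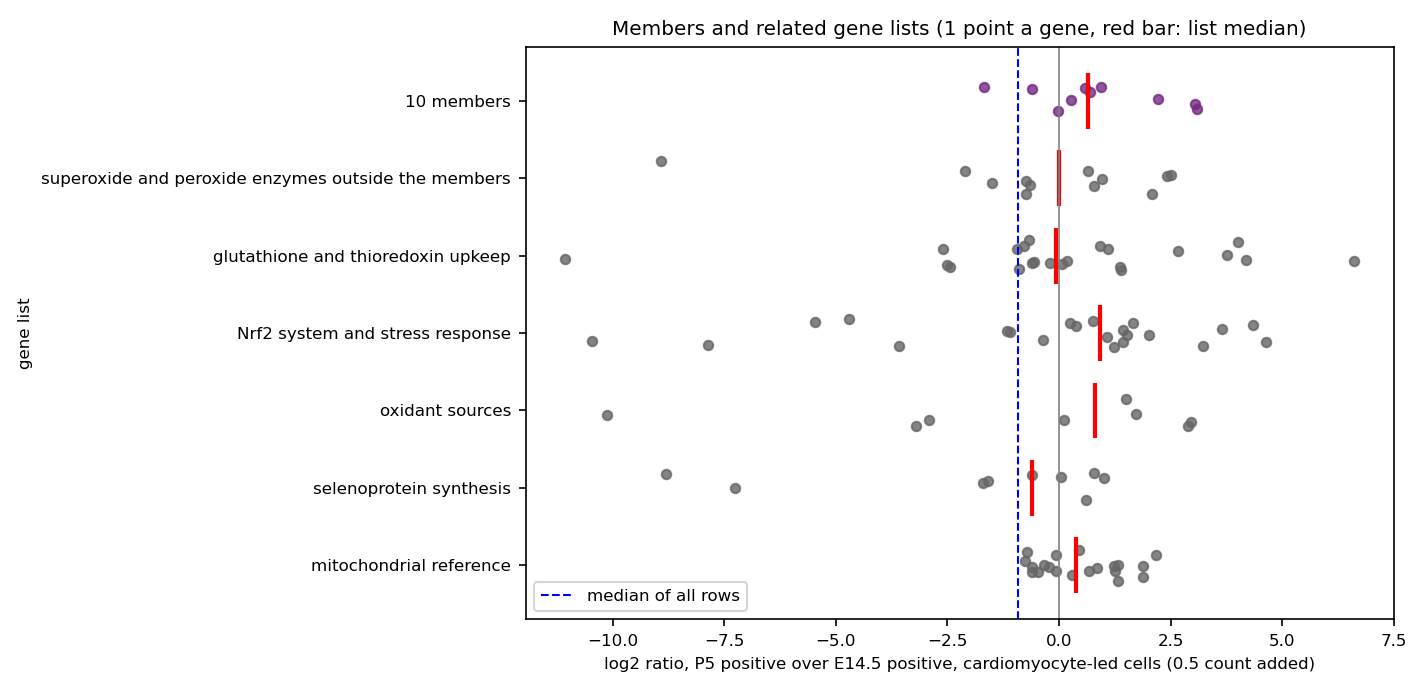
Log2 ratios between the ages (P5 over E14.5, positive cells) in cardiomyocyte-led cells, with 0.5 count added, for the 10 members and 6 related lists, 1 point a gene, a red bar at each list's median and a dashed line at the median of all rows. The members' median was 0.64 and that of the mitochondrial reference 0.37, beside -0.93 over all rows. Rows with a median coding transcript under 1000 bases had a median of -0.08.

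The genes most like each member were found by Pearson's r of log2 CPM over the 26 cardiomyocyte-led cells among 4424 rows. Prdx5 was most like the troponin gene Tnnc1 (r = 0.93) and the cytochrome oxidase subunits Cox4i1 (0.92) and Cox8a (0.92). Gpx4 was most like Psmb5 (0.92), Ppia (0.90) and Gapdh (0.88), and Gpx1 like the ribosomal protein gene Rpl19 (0.90) and Dad1 (0.86). Sod1 was most like Ndufb5 (0.83), Sod2 like Cav3 (0.76), Cat like Mccc1 (0.80), Txn2 like Psma6 (0.85), Prdx1 like Hn1 (0.71), Prdx3 like Rmdn1 (0.71) and Gpx3 like Bcor (0.75). Among the members, Gpx4 varied with Prdx5 (r = 0.83) and with Txn2 (0.82), and within the 21 E14.5 cells these were 0.82 and 0.85. The cells fall into the same 2 ages and title ranges and differ in depth, so these values are descriptions.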

How the data were processed

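The deposited table holds raw read counts per gene for 33 cells. Per the submitters' processing notes, CASAVA 1.8.2, STAR 2.4.0j and HTSeq 0.6.1p1 and the build mm10 were used, with no roles stated, and the use of strand, multi-mapping reads or molecular identifiers is not given in the sources used here. Every column belonged to 1 cell and all were used.

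A group's level is the sum of its cells' raw counts over the sum of their totals (CPM), with exact Poisson intervals and exact (Clopper-Pearson) binomial intervals for ratios, in Python 3.11.15 with scipy 1.17.1. For counts of genes past 2-fold and for ratios with a cell left out, 0.5 count was added to each group, and genes needed 10 counts over both groups. Related genes named in the text are the 3 highest and 3 lowest of each list that reached 20 CPM, with lists of fewer genes given whole. Some genes chosen by these rules are not reported here. The members and lists were chosen with earlier results of these data known. Alternatives were equal weights for cells, the median cell, edgeR 4.0.16 TMM factors, DESeq2 1.42.0 size factors, cells thinned to 8 M counts (M is 1000000) (4 shallower cells left out), totals without red blood cell markers or the 20 most abundant rows, subsets of cells, and leaving out each cell. The title-number, marker and length splits at P5 and E14.5 were chosen after seeing the data. Gene positions are from GENCODE M21 (GRCm38). The calculation was tested on simulated data that held counting error only. That check therefore does not bear on differences from cell to cell.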

Additional observations from a re-analysis of the deposited data

Results flagged for a closer look

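In groups of 4 to 10 cells, a cell was picked out when its gap to the nearest other cell exceeded Dixon's 95% limit for the range of the group. Of 30 combinations of member and group, 5 were picked out, and the 11 E14.5 negative cells were not screened. The limit assumes normally spread values and the members share the same cells, so this number is a description and is not set against chance. Sod2 in E14.5 positive cell G28 was at 1455 CPM, and the next cell was at 659 CPM. Catalase in P5 positive cell L2P8 was at 10.99 CPM, where the other 5 cells lay between 93.1 and 109 CPM. Catalase in P5 negative cell L1N3 was at 414 CPM against 82.9 CPM in the next cell, and L1N3 held 228015 CPM of red blood cell markers. In P5 negative cell L2N12, Gpx3 was at 279 CPM where the next cell had 0.18 CPM, and Prdx5 was at 851 CPM where the next had 234 CPM. L2N12 held 19402 CPM of fibroblast and mural markers, and the part of cell type in these values was not tested.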

How the results depend on the processing

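In P5 positive over E14.5 positive cells, 4 members were at least 2-fold higher, between 3 and 6 under every alternative run, and 2 were lower. The lower count was 1, without Prdx3, with DESeq2 or TMM factors, without the 20 most abundant rows, cardiomyocyte-led cells, no cells high in other markers, or E14.5 title numbers 21 to 30 with all cells or with cardiomyocyte-led cells. Leaving out each cell gave 3 to 5 higher and 1 to 2 lower. In E14.5 positive over negative cells the lower count was 0 with equal weights, the median cell and thinning, and 0 to 1 with a cell left out. The Gpx3 ratio there was 0.46 by the median cell, the opposite direction. In P5 positive over negative cells 2 members were lower with equal weights and without red blood cell markers. Leaving out a cell gave 2 to 5 higher and 0 to 2 lower, and Gpx3 ran from -6.68 (without L2P3) to 3.31 (without L2N12). In P5 negative over E14.5 negative cells, leaving out a cell gave 4 to 6 higher and 2 to 3 lower. Gpx3 ran from -6.50 (without L2N12) to 3.07 (without L2N7), and was -1.74 by the median cell. The cause of the other changes was not tested. TMM and DESeq2 factors moved the median log2 ratio of all rows by 0.16 and 0.38 between the ages in positive cells. Of the ratios of single members under alternatives, 295 moved by no more than their counting interval, 771 by more, and 4 that were past 2-fold, all of Gpx3, turned direction. A further 68 turned direction among ratios within 2-fold (at most 0.70 in size), which are counted among the others. Alternatives by cardiomyocyte or other markers could not be run with P5 negative cells. None of these cells is cardiomyocyte-led, and each reached 2000 CPM of endothelial, red blood cell or fibroblast and mural markers. No paired analysis was possible because the labels give no animal or replicate number shared between groups. Some values of single cells, among them several of Gpx3, lay under the 3-count floor, which was 0.106 to 1.18 CPM in single P5 cells. The part of depth in the results was not tested.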
